A study of Mus musculus with 6 samples.

Results

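The monocyte and macrophage effector genes are a set of 10 genes, Lyz2, Lyz1, Cd68, Lgals3, Hmox1, Ctsl, Ctss, Cybb, Ncf1 and Mpeg1, out of 19938 genes measured. They were chosen by name with their log2 differences between HLX and control arrays already known from an earlier analysis of the same values. Each was read from the probeset with a single gene symbol that had the highest mean over all 6 arrays. All 10 had such a probeset, and each had only 1 to choose from. The HLX vector group was lineage-negative, Kit-positive, Sca-1-positive (KSL) marrow cells of young adult wild-type FVB/nJ mice given a lentivirus that carries mouse HLX, a homeobox transcription factor, and GFP. The control vector group was the same cells given the lentivirus with GFP alone (pCAD-IRES-GFP). The HLX construct is written pCAD-HLX-IRES-GFP in one label and pCAD-IRES-GFP-Hlx in another. Both groups were kept for 2 days in serum-containing medium with the cytokines SCF, IL-3 and IL-6 and 8 µg/ml polybrene, and then sorted for GFP. Each group had 3 arrays, and nothing in the labels says whether these came from separate mice or cultures, so the errors given are those between samples and may be technical.

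Monocytes and macrophages kill and digest what they take up. Lysozymes cut bacterial cell walls, cathepsins degrade protein in the lysosome, the NADPH oxidase makes superoxide at the phagosome membrane, and haem oxygenase breaks down haem from engulfed red cells. Many of these genes are known to increase as myeloid progenitors mature, largely under the transcription factors PU.1 and C/EBP.

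Of the 10 genes, 8 had a higher mean level in HLX arrays and 2, Cybb (by a log2 difference of -0.0039) and Mpeg1, a lower one. Lyz2 and Cd68 were higher in every HLX array than in any control array, and Mpeg1 was lower in every one. The median log2 difference of the 10 genes, HLX minus control, was 0.198, against -0.008 over all genes, of which 47.5% were above 0. limma called 0 of the 10 at an adjusted p under 0.05, as it did over all genes (0.0%), and the adjusted p of the 10 ran from 0.824 to 1.0. At an unadjusted p under 0.05 stood 3 of the 10 and 4.8% of all genes: 2 of the 10 were higher (2.44% of all genes) and 1 was lower (2.36%). The groups did not overlap in the same 3 genes, 2 higher and 1 lower, and in 9.19% of all genes (4.34% higher and 4.85% lower). Because the choice of the genes used these differences, they are a description, and nothing is read from the counts. In bulk RNA, more cells of a type and more RNA per cell cannot be told apart.

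The promoter windows of the genes that differed without overlap, and of the Lyz2 paralog Lyz1, are shown for the sequence that lies ahead of these transcripts. Each window lies across the gene start, mostly upstream of it, and is read on the gene's own strand as RefSeq gives it on GRCm38.p6. Capitals mark GGAAGT, a core bound by ETS factors such as PU.1, and TGAGTCA, an AP-1 site, both searched on either strand. The windows are Lyz2 at chr10:117282223-117282522 (minus strand), Lyz1 at chr10:117292819-117293118 (minus), Cd68 at chr11:69666121-69666420 (minus) and Mpeg1 at chr19:12460520-12460819 (plus).
Lyz2: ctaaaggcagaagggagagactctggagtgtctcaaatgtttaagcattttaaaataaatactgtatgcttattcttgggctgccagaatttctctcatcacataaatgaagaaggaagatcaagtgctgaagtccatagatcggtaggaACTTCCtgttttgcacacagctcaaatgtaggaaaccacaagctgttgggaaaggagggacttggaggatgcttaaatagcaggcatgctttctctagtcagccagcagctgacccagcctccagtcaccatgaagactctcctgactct
Lyz1: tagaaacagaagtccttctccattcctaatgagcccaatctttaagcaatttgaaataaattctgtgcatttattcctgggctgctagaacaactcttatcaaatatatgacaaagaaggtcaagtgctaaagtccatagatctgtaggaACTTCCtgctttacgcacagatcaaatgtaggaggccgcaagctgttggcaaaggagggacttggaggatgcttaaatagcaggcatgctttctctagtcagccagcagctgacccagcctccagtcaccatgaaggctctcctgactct
Cd68: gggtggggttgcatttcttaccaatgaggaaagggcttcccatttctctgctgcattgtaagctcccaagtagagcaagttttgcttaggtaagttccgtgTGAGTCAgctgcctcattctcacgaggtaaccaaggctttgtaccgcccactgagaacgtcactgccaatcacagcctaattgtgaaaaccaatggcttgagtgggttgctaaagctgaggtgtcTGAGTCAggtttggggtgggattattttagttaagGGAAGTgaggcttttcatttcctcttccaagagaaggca
Mpeg1: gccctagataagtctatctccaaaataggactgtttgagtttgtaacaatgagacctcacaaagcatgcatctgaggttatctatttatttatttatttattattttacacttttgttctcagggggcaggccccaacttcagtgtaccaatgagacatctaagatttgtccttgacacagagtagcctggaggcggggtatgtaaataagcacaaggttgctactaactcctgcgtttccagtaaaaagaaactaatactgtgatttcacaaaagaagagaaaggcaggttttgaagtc
The Lyz2 and Lyz1 windows matched at 254 of 310 alignment columns (81.9%), and each held GGAAGT once, on the reverse strand. Cd68 held GGAAGT once and TGAGTCA at 2 places, and the Mpeg1 window held neither motif. Of the 9 effector genes with a window in the table, 4 (Lyz2, Lyz1, Cd68 and Ctss) held GGAAGT and 1 held TGAGTCA. Among all 32851 RefSeq promoter windows of this length, 23.8% held GGAAGT and 5.2% held TGAGTCA. Hmox1 has no window here.

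The arrays were alike in distribution, with medians of 6.32 to 6.40 and pairwise correlations of 0.980 to 0.987. Hlx itself had log2 levels of 10.75, 9.74 and 10.28 in HLX arrays 1, 2 and 3, against 6.99, 7.29 and 7.62 in control arrays 1, 2 and 3. Kit, the stem cell factor receptor used in the sort, was at 9.59, 9.58 and 9.31 in HLX arrays and 9.20, 9.50 and 9.53 in control arrays. Cd34, a surface protein of progenitors, was at 10.72, 11.36 and 11.02 in HLX arrays and 11.15, 11.26 and 11.21 in control arrays. Ly6a, which encodes Sca-1, is not analysed here. Values below are given in the same array order. A level is the RMA log2 signal of one probeset, so levels are compared between arrays and not between genes.

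**Figure D1:**
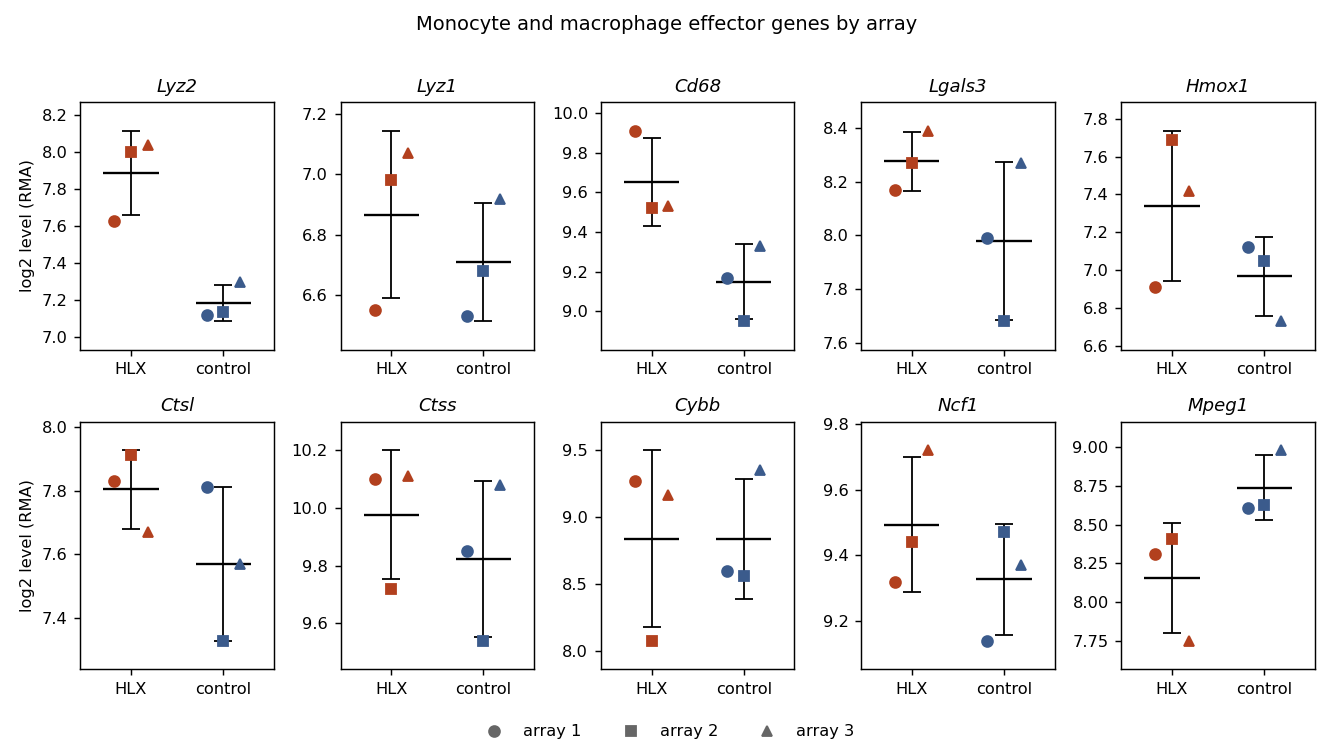
RMA log2 level (y axis, scaled per gene) of each of the 10 effector genes in the 3 HLX arrays (left, red) and the 3 control arrays (right, blue). Marker shapes give the array number, and black lines the mean ± SD. The groups stand apart for Lyz2, Cd68 and Mpeg1 and overlap for the other 7 genes.

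The 2 lysozyme genes lie next to each other and encode antibacterial enzymes, Lyz2 being the form of mouse macrophages and granulocytes and Lyz1 that of intestinal Paneth cells. Lyz2 had log2 levels of 7.63, 8.00 and 8.04 in HLX arrays, against 7.12, 7.14 and 7.30 in control arrays. The lowest HLX array lay 0.33 log2 units above the highest control array, and HLX array 1 was the lowest of its group. Lyz2 was 1.63-fold higher on average (95% interval from limma 1.31 to 2.03). Lyz1 was at 6.55, 6.98 and 7.07 in HLX arrays and 6.53, 6.68 and 6.92 in control arrays. Its groups overlapped, since control arrays 2 and 3 lay above HLX array 1, and its log2 difference was 0.15 ± 0.17 (SE, n = 3 per group). This pair is known to be close to identical in coding sequence. Whether part of the Lyz1 signal comes from Lyz2 transcript was not tested.

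The lysosomal proteins of the set are CD68, a heavily glycosylated membrane protein of macrophage endosomes and lysosomes, and the cysteine proteases cathepsin L (Ctsl) and cathepsin S (Ctss), the second of which trims the invariant chain of MHC class II. Cd68 was at 9.91, 9.52 and 9.53 in HLX arrays, against 9.17, 8.95 and 9.33 in control arrays. All 3 HLX arrays lay above all 3 control arrays, by at least 0.19 log2 units, and HLX array 1 was the highest. The mean was 1.42-fold higher (95% interval 1.11 to 1.81).

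Ctsl was at 7.83, 7.91 and 7.67 in HLX arrays and at 7.81, 7.33 and 7.57 in control arrays. Control array 1 reached the HLX range, and the log2 difference was 0.23 ± 0.14 (SE). Ctss was at 10.10, 9.72 and 10.11 in HLX arrays, against 9.85, 9.54 and 10.08 in control arrays. The second array was the lowest in both groups, and the difference of 0.16 ± 0.17 was smaller than the spread of either group, 0.22 with HLX and 0.27 with control (SD). Its 95% interval, -0.24 to 0.56, includes both no difference and the size seen for Cd68.

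Galectin-3 (Lgals3) is a galactose-binding lectin that macrophages make and secrete in large amounts. Its levels were 8.17, 8.27 and 8.39 in HLX arrays, against 7.99, 7.68 and 8.27 in control arrays. The HLX arrays were tight (SD 0.11) and the control arrays wider (SD 0.30), with control array 3 inside the HLX range. The log2 difference was 0.30 ± 0.16 (SE), with a 95% interval of -0.07 to 0.67.

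Haem oxygenase 1 (Hmox1) frees iron from haem and is induced by haem and oxidants. It was at 6.91, 7.69 and 7.42 in HLX arrays and at 7.12, 7.05 and 6.73 in control arrays. HLX arrays 2 and 3 were above every control array, while HLX array 1 lay below control arrays 1 and 2. The log2 difference was 0.37 ± 0.21 (SE). Without HLX array 1 it was 0.59, and without HLX array 2 it was 0.20.

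Cybb encodes gp91phox, the catalytic membrane subunit of the phagocyte NADPH oxidase, and Ncf1 encodes p47phox, the cytosolic subunit that brings the complex together. Cybb was at 9.27, 8.08 and 9.16 in HLX arrays, against 8.60, 8.56 and 9.35 in control arrays. Array 2 with HLX was the lowest of all 6 and control array 3 the highest, and the means were equal at 8.84 ± 0.66 and 8.84 ± 0.44 (SD, n = 3 each). The SD of Cybb among HLX arrays exceeded that of 98.5% of all genes, and among control arrays that of 95.8%. The sign of its difference rested on single arrays: it was 0.38 without HLX array 2 and 0.25 without control array 3. Ncf1 was at 9.32, 9.44 and 9.72 in HLX arrays and 9.14, 9.47 and 9.37 in control arrays, and the groups overlapped (0.16 ± 0.14, SE).

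Perforin-2 (Mpeg1) is a pore-forming protein of phagocytes that attacks engulfed bacteria. It ran opposite to Lyz2 and Cd68, at 8.31, 8.41 and 7.75 in HLX arrays, against 8.61, 8.63 and 8.98 in control arrays. Every HLX array was lower, by a gap of at least 0.20 log2 units, and HLX array 3 was the lowest. The log2 difference was -0.58 ± 0.19 (SE, 95% interval -1.04 to -0.13), or 1.50-fold lower. Without HLX array 3 it was -0.38.

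**Figure D2:**
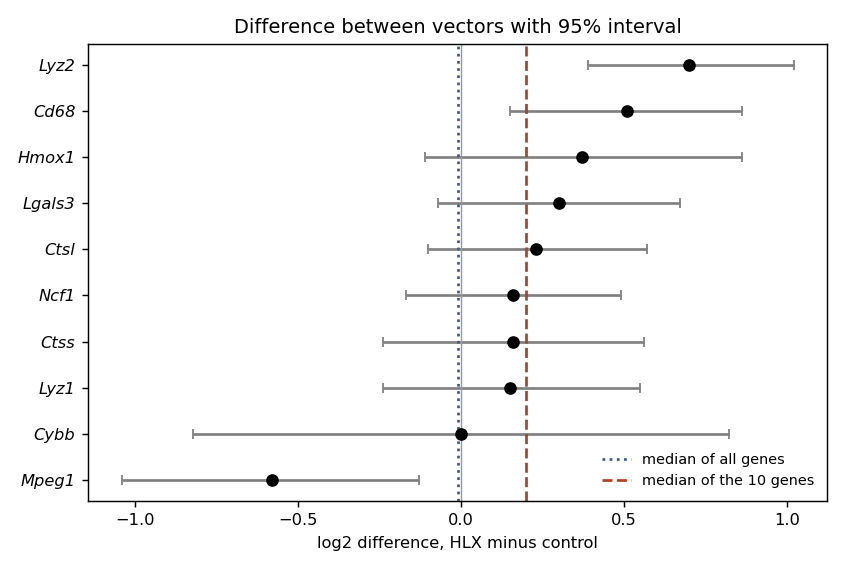
Log2 difference, HLX minus control (x axis), of each effector gene (rows), with the 95% interval from limma. The dashed line is the median of the 10 genes (0.198) and the dotted line that of all genes (-0.008). The intervals of Lyz2, Cd68 and Mpeg1 leave out 0 before adjustment over all genes.

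The genes did not share one order across the HLX arrays. HLX array 1 was the lowest of its group for 5 genes, Lyz2, Lyz1, Lgals3, Hmox1 and Ncf1. For Cd68, Ctss and Cybb the lowest was HLX array 2, and for Ctsl and Mpeg1 it was HLX array 3. Over all genes the lowest array was HLX array 1 in 31.4%, HLX array 2 in 41.7% and HLX array 3 in 26.9%. The deviations from the group mean reached -0.76 for Cybb in HLX array 2 and -0.43 for Hmox1 and 0.43 for Cybb in HLX array 1. The median deviation of the 10 genes was -0.04, 0.05 and 0.12 in HLX arrays 1, 2 and 3, against -0.007, -0.037 and 0.040 over all genes.

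Among the control arrays, control array 3 was above its group mean for 9 of the 10 genes, Hmox1 being the exception, and was the highest control array for 7, where it was the highest for 36.6% of all genes. Its median deviation was 0.20, against -0.03 in control array 1 and -0.15 in control array 2. Without control array 3 the median difference of the 10 genes was 0.258, and without control array 2 it was 0.144. For genes whose groups overlapped, leaving out 1 array moved the log2 difference over a range of 0.05 to 0.31 for Lyz1, 0.15 to 0.44 for Lgals3, 0.11 to 0.35 for Ctsl and 0.05 to 0.25 for Ncf1. For Ctss it was 0.02 without control array 2.

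**Figure D3:**
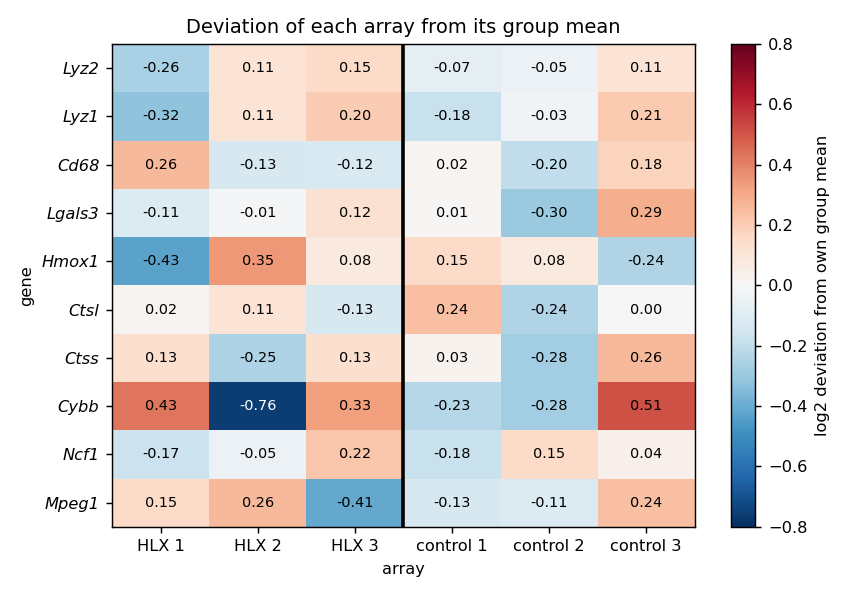
Deviation of each array from the mean of its own group in log2 units (colour and printed value) for the 10 effector genes (rows), HLX arrays at the left of the line and control arrays at the right. Control array 3 is above its mean for 9 genes, while no HLX array stands so for more than 7.

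Genes that work with the effector genes were read from 9 lists, in none of which limma called a member over all genes. In the NADPH oxidase list, 5 of 11 measured genes were higher and 6 lower, with a median log2 difference of -0.004. Cyba, the p22phox partner that stabilises gp91phox, was at 9.51, 9.12 and 9.10 in HLX arrays, against 8.86, 8.99 and 8.26 in control arrays. Every HLX array lay above every control array, with a log2 difference of 0.54 ± 0.21 (SE) that was 0.32 without control array 3. Nox1, the catalytic subunit of a non-phagocyte oxidase, was at 6.40, 6.96 and 6.28 in HLX arrays and 7.0, 7.74 and 7.33 in control arrays, lower in each HLX array (-0.81 ± 0.24).

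In the lysosome list 17 of 26 genes were higher and 9 lower (median 0.083), and 2 were higher without overlap (4.34% of all genes were so), Tpp1 and the effector gene Cd68. Tpp1, a lysosomal tripeptidyl peptidase, was at 8.46, 8.14 and 8.28 in HLX arrays, against 7.97, 7.70 and 8.06 in control arrays (0.38 ± 0.13, SE). Mitf, a transcription factor that can drive lysosomal genes, had a difference of 0.26 ± 0.14. Among cathepsins and their inhibitors 10 of 17 were higher (median 0.029) and 0 were without overlap. Ctsz was at 0.28 ± 0.14, the inhibitor gene Cstb at 0.26 ± 0.15 and Ctso at -0.32 ± 0.17 (log2 differences ± SE).

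Around Hmox1, the list of haem, iron and oxidant response genes had 13 of 23 higher (median 0.032). Keap1, which holds back the oxidant response factor NRF2, was at -0.21 ± 0.10 and the reductase gene Txnrd1 at -0.18 ± 0.11. Spic, a transcription factor of red pulp macrophages, was at 0.42 ± 0.27. The Spic difference came from HLX array 2 (5.81, against 4.83 and 4.77 in the other two HLX arrays and 4.86, 4.72 and 4.58 in control arrays). In the galectin list 7 of 9 were higher (median 0.032), and Lgals1 had a difference of 0.40 ± 0.24, which ran from 0.24 to 0.62 with 1 array left out. The lysozyme family was 5 of 9 higher (median 0.020), with Lyz2 alone at an unadjusted p under 0.05. The pore protein list was 3 of 8 higher (median -0.048). Beside Mpeg1 the complement gene C6 was lower without overlap (-0.24 ± 0.12), as were 4.85% of all genes. The complement gene C9 was higher without overlap (0.16 ± 0.10), as were 4.34% of all genes. C6 and C9 were both below the median signal of all probesets.

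**Figure D4:**
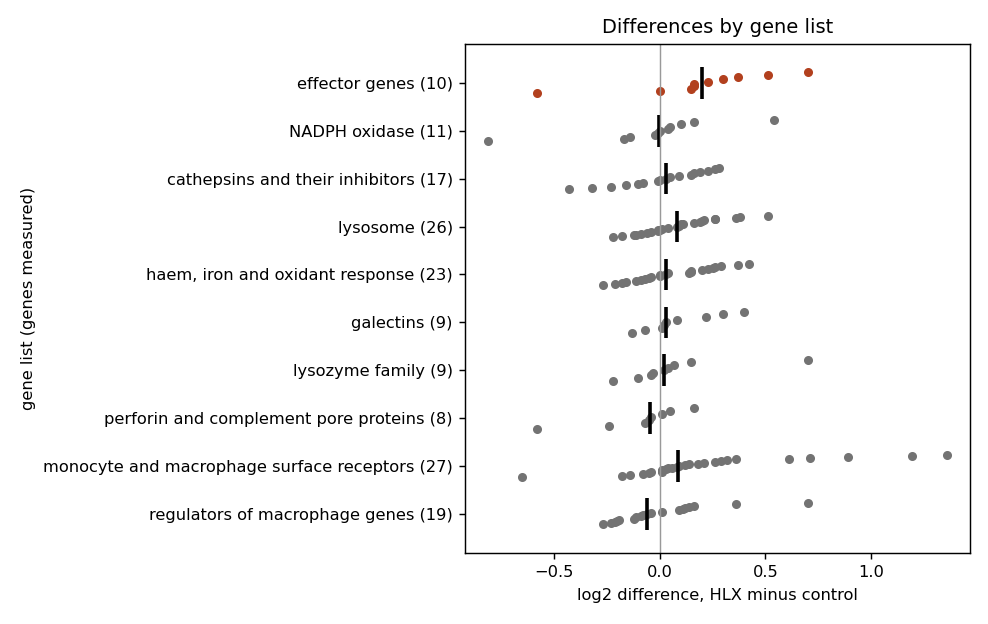
Log2 difference, HLX minus control (x axis), of every measured gene (points) in the effector set (red) and the 9 related lists (grey), with the number of genes measured in brackets and a bar at each list's median. The list medians run from -0.058 for regulators to 0.086 for the surface receptor list, beside 0.198 for the effector genes.

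The list of monocyte and macrophage surface receptors also holds Emilin2 and F13a1, which do not encode receptors. In it 21 of 27 genes were higher (median 0.086, against -0.008 over all genes), 4 of them without overlap (4.34% of all genes were so). Lower without overlap were 3 (4.85% of all genes). The gaps were only 0.0 and 0.01 log2 units for Emilin2 and Csf1r, both higher, and 0.02 and 0.04 for F13a1 and Mrc1, both lower. Itgam and Itgb2 encode the 2 chains of the integrin Mac-1. Itgam was at 7.24, 6.91 and 6.72 in HLX arrays, against 6.49, 5.72 and 5.99 in control arrays, and Itgb2 at 8.50, 7.65 and 7.81 in HLX arrays, against 7.51, 6.88 and 7.44 in control arrays. Both were higher in each HLX array, and HLX array 1 was the highest for both, as for Cd68. Fcer1g, the signalling chain of Fc receptors, was lower in each HLX array, at 8.09, 8.15 and 7.61, against 8.39, 8.55 and 8.86 in control arrays, with HLX array 3 lowest as for Mpeg1. The log2 differences were 0.89 ± 0.22, 0.71 ± 0.25 and -0.65 ± 0.18 (SE) for Itgam, Itgb2 and Fcer1g, with adjusted p of 0.901, 0.977 and 0.914 from limma. That of Itgb2 was 0.45 without HLX array 1.

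Csf1r, the receptor of the macrophage growth factor CSF1, was at 6.49, 7.80 and 8.92 in HLX arrays, against 6.28, 6.48 and 6.37 in control arrays. HLX array 1 was level with the control arrays, and the other two were higher. Itgax, the integrin chain CD11c, had the same order, at 6.14, 7.19 and 8.43 in HLX arrays, against 5.66, 6.20 and 6.33 in control arrays. The log2 differences were 1.36 ± 0.53 and 1.19 ± 0.52 (SE). Without HLX array 1 they were 1.99 for Csf1r and 1.75 for Itgax, and without HLX array 3 they were 0.77 for Csf1r and 0.61 for Itgax. Lyz2 also had HLX array 1 lowest and HLX array 3 highest, over a range of 0.41 log2 units, against 2.43 for Csf1r.

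Of 19 measured regulators of macrophage genes, 8 were higher and 11 lower (median -0.058). Spi1, which encodes PU.1, was at 9.19, 9.58 and 9.96 in HLX arrays, against 8.44, 8.77 and 9.43 in control arrays. Control array 3, the array that was high for most effector genes, lay inside the HLX range, and the log2 difference was 0.70 ± 0.28 (SE). Cebpb, a C/EBP factor of macrophages, was at 7.0, 6.93 and 7.32 in HLX arrays and 6.69, 6.70 and 6.79 in control arrays, without overlap (0.36 ± 0.12, and 0.24 without HLX array 3). Klf4, a factor of monocyte fate, was lower without overlap (-0.20 ± 0.10). Its gap was only 0.08 log2 units, and it was below the median signal of all probesets. Cebpb and Klf4 were the only regulators without overlap, 1 higher (4.34% of all genes were so) and 1 lower (4.85%).

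**Figure D5:**
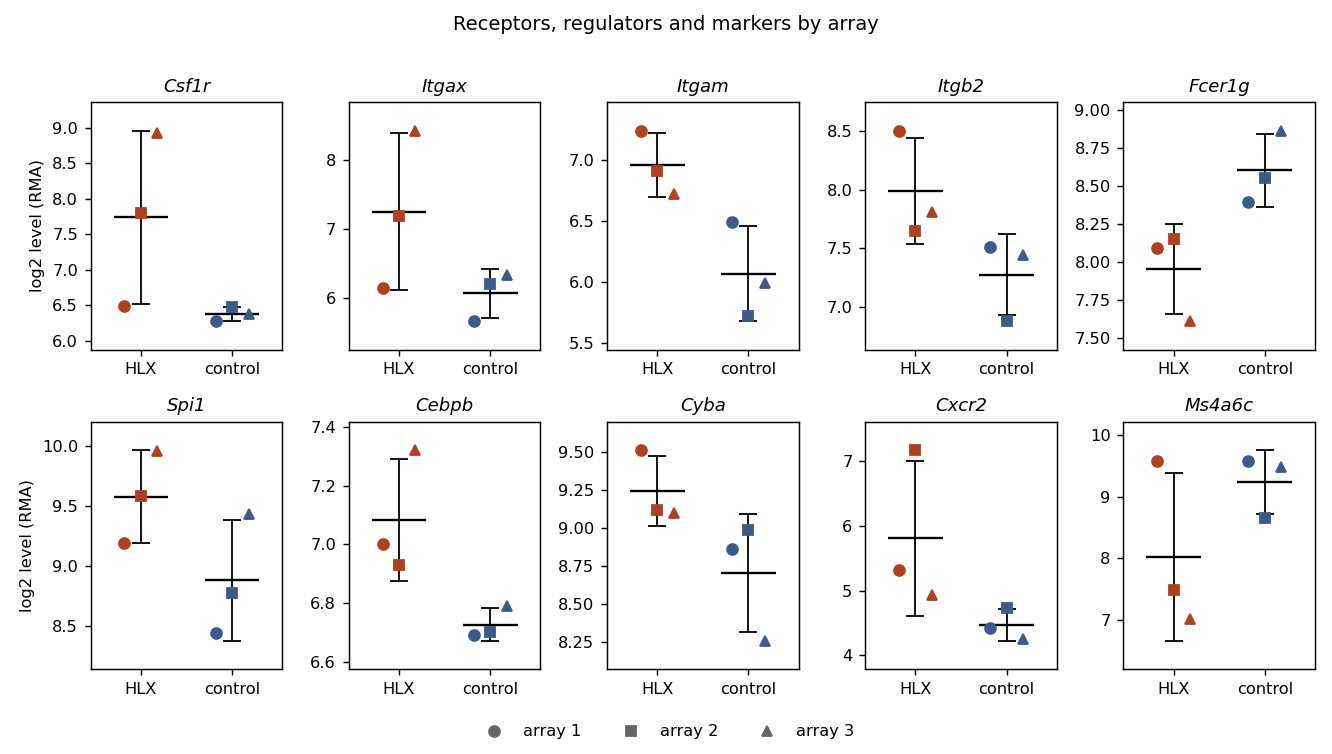
RMA log2 level (y axis, scaled per gene) of receptor, regulator, oxidase and marker genes in the 3 HLX arrays (left, red) and the 3 control arrays (right, blue), with marker shapes for the array number and black lines for the mean ± SD. Csf1r and Itgax are spread widely among HLX arrays (SD 1.22 and 1.14), while Itgam, Itgb2, Cebpb and Cyba are higher and Fcer1g lower in every HLX array.

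Markers of cells that the sort could hold were summed per array on the linear scale. Of 12 tissue macrophage markers only Csf1r was above the median signal of all probesets. Their summed signal was 604 to 1085 in HLX arrays and 596 to 620 in control arrays, highest in HLX array 3. Without Csf1r the sums overlapped, at 499 to 602 in HLX arrays and 517 to 538 in control arrays. The macrophage marker Adgre1 (F4/80) was at 4.75, 4.86 and 5.37 in HLX arrays and at 4.63, 4.54 and 4.85 in control arrays. Of 12 neutrophil markers 0 were above that median, and their sum was 448 to 533 in HLX arrays and 414 to 434 in control arrays. That separation rested on Cxcr2, a chemokine receptor: without it the other 11 summed to 389 to 424 in HLX arrays and 392 to 415 in control arrays. Of the 12, 8 had a higher mean with HLX (47.5% of all genes did), 1 of them without overlap (4.34% of all genes). The other 4 had a lower mean, 3 of them without overlap (4.85% of all genes). The gaps of these 3, Ly6g, Ltf and Camp, were only 0.01, 0.0 and 0.05 log2 units. The neutrophil marker Ly6g was at 4.72, 4.69 and 4.87 in HLX arrays, against 4.88, 4.96 and 4.88 in control arrays.

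Sums of the other marker lists overlapped between the groups except for 2. The 10 measured KSL markers summed to 5569 to 6358 in HLX arrays, against 6503 to 6972 in control arrays. Of the 10, 9 had a lower mean with HLX (10467 of all 19938 genes did), with a list median of -0.133. Flt3 had the largest log2 difference (-0.68 ± 0.16, SE). Without Cd34, the marker with the largest difference in linear signal, the KSL sums overlapped, at 3491 to 4261 in HLX arrays and 4137 to 4697 in control arrays. The 9 B and T cell markers summed to 539 to 601 in HLX arrays and 616 to 768 in control arrays, and 3 of the 9 were above the median signal of all probesets. Without Cd79b, a chain of the B cell receptor, the sums overlapped, at 384 to 426 in HLX arrays and 409 to 433 in control arrays. Monocyte markers gave 1109 to 1702 in HLX arrays and 1178 to 1646 in control arrays. Without Ms4a6c, whose mean was lower with HLX, their sums did not overlap, at 929 to 1306 in HLX arrays and 778 to 881 in control arrays. Csf1r is also on this list and was kept in these sums, and that separation rested on it. The sums were 929 in HLX array 2 and 881 in control array 1. Csf1r, at log2 levels of 7.80 and 6.28 in these arrays, differed in linear signal by more than that gap. Dendritic cell markers gave 3017 to 3460 in HLX arrays and 2344 to 3316 in control arrays. Mast cell and basophil markers gave 301 to 341 in HLX arrays and 336 to 541 in control arrays. Erythroid and megakaryocyte markers gave 1091 to 1395 in HLX arrays and 1012 to 2363 in control arrays, and stromal and endothelial markers 622 to 713 in HLX arrays and 635 to 702 in control arrays. The part of these cell types in the differences of the effector genes was not tested.

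The genes with the array profile nearest to that of Lyz2 were found by the root mean square difference of log2 profiles, each centred on its mean, over the 6 arrays. The 5 nearest outside the set were Cbfa2t2, a transcriptional corepressor of the ETO family (0.0673), Leng1 (0.0819), Abcc1, a drug and leukotriene exporter (0.0926), E2f6, a repressor of the E2F family (0.104), and Plekha8, a glycolipid transfer protein (0.115). Cbfa2t2 has 2 probesets, and with the mean of each gene's probesets it was at 0.184, in place 51, while the other 4 held places 1 to 4. Within the set, Lgals3 was the nearest to Lyz2, at 0.255, with 1.48% of all genes nearer. Cybb and Mpeg1 were the farthest, with 96.0% and 98.2% of genes nearer. The distance includes the difference between HLX and control arrays, which was known when the set was chosen, so these shares are a description.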

How the data were processed

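RNA of GFP-sorted cells, 3 HLX vector and 3 control vector samples, was amplified from 3 ng and hybridised to Affymetrix arrays, per the labels' protocols. Per the submitters' processing notes, the authors used Affymetrix Power Tools and RMA to make the deposited table, 1 log2 level for each probeset and array. RMA normalizes between arrays and compresses weak signals. No source used here names the build behind the deposited values. Promoter windows are RefSeq's, on GRCm38.p6. Of 35556 probesets, 21789 had 1 gene symbol in the platform annotation, 1621 several and 12146 were unlisted, and the brightest probeset per gene left 19938 genes, with no filter on dim signal.

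HLX was compared with control vector on all genes with limma 3.58.1 (lmFit, eBayes; R 4.3.3), as a 2-sided test with p adjusted by Benjamini-Hochberg across the 19938 genes, at 0.05. SEs and 95% intervals are limma's moderated ones, and the fit was tested on simulated data. Precision is limited by having 3 arrays a group. Lists are described by counts and medians. Promoters were aligned with Biopython 1.88.

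Named beside the effector genes are Hlx and a few markers by name, up to 3 genes per related list and 2 per marker list with the smallest p, and the 5 genes nearest to Lyz2. Not all are printed. The effector genes and lists were chosen with earlier results of these data known. Alternatives were a filter on dim probesets, 3 other normalizations, a linear offset of 16, another variance prior, array weights, the mean of a gene's probesets, the replicate number as a block, each array left out, and both arrays numbered 1 left out. Marker sums without the marker of largest difference, and the genes nearest to Lyz2 on probeset means, were added after seeing the data.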

Additional observations from a re-analysis of the deposited data

How the results depend on the processing

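Under all 16 alternatives limma called 0 of the 10 effector genes. The number of them higher with HLX was 8 or 9, and their median log2 difference ran from 0.144 to 0.282 with 1 array left out and from 0.188 to 0.282 over the other settings. Over all genes 0 were called with each array left out, and 1, Hlx, was called with a trended and robust variance prior. Cybb changed sign with median centring (0.02), without HLX array 2 (0.38) and without control array 3 (0.25), and with 1 array left out it ran from -0.22 to 0.38. Kit, which was not called, changed sign without control array 1 (-0.02) and, in a setting added after seeing the data, without either array numbered 1 (-0.06). With 1 array left out it ran from -0.02 to 0.18. The cause was not tested beyond the arrays left out. The adjusted p of Lyz2 ran from 0.536 to 1.0, that of Cd68 from 0.747 to 1.0 and that of Mpeg1 from 0.780 to 1.0, with no change of sign. Whether the replicate numbers pair the arrays cannot be settled with 3 arrays per group. Deviations from the group means correlated over genes at 0.2, 0.009 and 0.143 for arrays numbered 1, 2 and 3. HLX arrays 1 and 3 correlated best with the control array of their own number, and HLX array 2 with control array 1 (0.043). The main fit took the arrays as unpaired. With the replicate number as a block 0 genes were called and the median of the 10 was 0.198. With 3 arrays per group, differences as small as those of Lyz1, Ctss or Ncf1 lie inside their intervals around 0.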

Other observations

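Single myeloid genes from the marker lists were spread widely among the HLX arrays. These were chosen after their values were seen, except Cxcr2. Ms4a6c, a membrane protein of monocytes, was at 9.57, 7.49 and 7.02 in HLX arrays 1, 2 and 3, against 9.58, 8.65 and 9.48 in control arrays. HLX array 1 was level with the control arrays, where Csf1r was too, and the other two HLX arrays were lower, where Csf1r was higher. Cxcr2, the chemokine receptor of neutrophils, was at 5.32, 7.17 and 4.94 in HLX arrays, against 4.42, 4.74 and 4.26 in control arrays. Its high value was in HLX array 2, the array in which Cybb was lowest and Hmox1 highest. Treml4, a receptor of myeloid cells, was at 7.27, 5.56 and 6.19 in HLX arrays, against 5.58, 5.65 and 6.0 in control arrays, with the high value in HLX array 1, the array in which Cd68 was also highest. Ms4a4c, an interferon-inducible gene of monocytes, was at 7.56, 6.15 and 6.01 in HLX arrays and at 7.93, 5.95 and 5.58 in control arrays, so that array 1 was high in both groups. With both arrays numbered 1 left out, the log2 difference of Lyz2 was 0.80, that of Hmox1 0.66 and that of Cd68 0.39.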
